A study of Mus musculus with 5 samples.

Results

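Regulatory T cells were chosen by UMI counts of marker genes, as the cell barcodes that held at least 1 UMI of Foxp3 and at least 1 UMI of the T cell receptor genes Cd3e, Cd3d and Cd3g, no UMI of Cd8a or Cd8b1, and no UMI of Csf1r, C1qa or Cd79a. A UMI is a molecular tag that marks a captured transcript, so that its count stands for molecules. The rule found 464 of 37074 barcodes with at most 10% mitochondrial UMIs, or 1.25%. The tumors were B16-F10, a line of mouse melanoma, of which 500000 cells had been placed under the skin, and live CD45-positive cells were sorted from them on day 11 for droplet sequencing from the 5' end of transcripts. All 5 libraries share this tumor and this sort, and each is the only library of its treatment.

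The mice had been given PBS, anti-PD1 (an antibody that blocks the receptor PD-1), an IL15 superagonist, both agents (combination), or a protein in which IL15 and the antibody are joined (fusion). Series of 5 values below follow that order. The combination is named after its title, since its treatment tag gives IL15 without the word superagonist. The sources used here do not give age, the number of mice behind a library, doses or schedule, and the labels' wording puts treatment after the tumors were removed. With 1 library per treatment the spread between animals cannot be measured, and treatment and library cannot be told apart.

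Foxp3 is the transcription factor that defines regulatory T cells, a CD4 lineage that restrains other T cells. They do so by capturing costimulatory ligands through Ctla4, by taking up interleukin 2 through the high-affinity receptor chain Il2ra, and by releasing or activating inhibitory cytokines such as interleukin 10 and TGF-beta. In tumors they often carry activation receptors of the TNF receptor family and the chemokine receptor Ccr8, and they share the receptor chains Il2rb and Il2rg, through which interleukin 15 signals, with CD8 T cells and NK cells.

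Foxp3 is a forkhead factor and interleukins 2 and 15 signal through STAT5, so the promoters of 3 genes that the comparisons below turn on are shown with matches to these factors' motifs, each from 250 bases before to 50 bases after a RefSeq gene start on GRCm38.p6. The 3 promoters shown are ones that held a match. Those of Il2ra, Ctla4 and Tnfrsf4 were searched too and held neither motif. Tnfrsf9 and Tcf7 each had another gene start whose promoter held neither motif. Tnfrsf9 was among the genes higher in regulatory T cells and Tcf7 among those lower, and Gzmb differed between treatments. Capitals mark the STAT motif TTCNNNGAA in Tnfrsf9 (chr4:150927749-150928048, plus strand) and Gzmb (chr14:56262285-56262584, minus strand), and the forkhead motif GTAAACA in Tcf7 (chr11:52282546-52282845, minus strand).
Tnfrsf9: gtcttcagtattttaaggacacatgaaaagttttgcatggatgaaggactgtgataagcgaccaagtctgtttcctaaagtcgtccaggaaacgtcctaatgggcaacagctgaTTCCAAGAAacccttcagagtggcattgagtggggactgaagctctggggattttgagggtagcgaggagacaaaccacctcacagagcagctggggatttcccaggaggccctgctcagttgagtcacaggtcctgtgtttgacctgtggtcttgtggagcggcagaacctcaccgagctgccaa
Tcf7: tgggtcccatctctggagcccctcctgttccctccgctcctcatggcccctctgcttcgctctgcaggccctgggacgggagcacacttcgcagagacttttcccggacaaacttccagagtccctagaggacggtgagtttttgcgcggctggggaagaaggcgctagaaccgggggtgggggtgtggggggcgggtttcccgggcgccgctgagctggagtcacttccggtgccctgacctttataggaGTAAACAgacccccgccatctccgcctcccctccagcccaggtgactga
Gzmb: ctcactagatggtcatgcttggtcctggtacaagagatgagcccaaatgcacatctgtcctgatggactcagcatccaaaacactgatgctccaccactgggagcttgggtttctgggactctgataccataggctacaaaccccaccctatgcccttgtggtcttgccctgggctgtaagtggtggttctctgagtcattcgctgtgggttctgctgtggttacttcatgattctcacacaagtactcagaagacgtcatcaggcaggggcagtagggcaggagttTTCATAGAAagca
Both motifs were searched on both strands, and no match shown overlaps another. GTAAACA occurred in 1199 of 32851 promoters of this length (3.65%) and TTCNNNGAA in 2726 (8.30%). Of the 12 genes named below as higher than in Foxp3-negative CD4 T cells, 9 had a promoter in the table, of which 0 held the forkhead motif and 1, Tnfrsf9, held the STAT motif. Of the 12 named as lower, 9 had a promoter, of which 1, Tcf7, held the forkhead motif and 0 the STAT motif. A match describes letters in this window and is not a measured binding site.

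The label of the cells was checked against markers that the rule did not use. Ikzf2, which encodes the transcription factor Helios, had a UMI in 95.9% of the 464 cells, the receptor OX40 gene Tnfrsf4 in 90.3% and Il2ra in 74.1%. At least 2 of these 3 were found in 431 cells (92.9%), and 7 cells had none. Cd4, which the rule does not ask for, had a UMI in 58.0%, with 62.3%, 67.2%, 57.1%, 46.2% and 42.9% by library.

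The rule turns on a threshold of 1 UMI of Foxp3, and 157 cells (33.8%) had exactly 1. Ikzf2 was detected in 93.6% of these 157, in 97.1% of the 307 with 2 or more, and in 32.9% of the 510 T cells just outside, which had Cd4 but no Foxp3 UMI. The 235 Foxp3-positive T cells that the rule left out for a Cd8a or Cd8b1 UMI had Ikzf2 in 89.8% and Cd4 in 42.1%, at a median of 7635 UMIs per cell. In barcodes of myeloid or B cells without a Cd3 UMI, Foxp3 was found in 0.445%, 0.989%, 0.269%, 0.318% and 0.0%, and Cd8a or Cd8b1 in 1.05%, 1.11%, 3.16%, 2.02% and 5.76%. Free RNA is a possible source of such UMIs, which was not tested. Barcodes that also held a Cd3 UMI were left out, so these shares do not measure the level of free RNA. The Cd8 share was highest in the fusion library.

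Median depth was 4518, 5687.5, 4302, 4956 and 7927 UMIs over all kept barcodes, and 4015, 4519, 4633, 4229.5 and 4074 UMIs in regulatory T cells. The lowest barcode had between 1751 and 2671 UMIs by library. No regulatory T cell barcode was shared between libraries. The PBS library stood apart in T cell receptor segments, with 0.330 Trbv UMIs per Trbc UMI in regulatory T cells against 2.0 to 3.43 in the other 4. Barcodes are called mixed below where they had at least 2 UMIs over a myeloid panel (C1qb, Apoe, Lyz2, Fcer1g and Tyrobp), a B cell panel (Cd79b and Ms4a1) or a neutrophil panel (S100a8, S100a9 and Csf3r), or more than 3 times the median UMIs of their class. Of the regulatory T cells 21, 28, 15, 37 and 3 were mixed, 104 in all. Fcer1g and Tyrobp are also expressed by NK cells and some activated CD8 T cells, so the panel is not specific to doublets. The summed level of 5 NK cell markers was 21.8, 16.5, 188, 96.1 and 128 CPM, the UMIs of a gene scaled to a fixed total of UMIs per library and class, in them, that of 7 dendritic cell markers 190, 596, 236, 335 and 244 CPM, and that of 7 macrophage markers 30.0, 14.2, 14.5, 86.0 and 12.8 CPM. Ccr7, which T cells also express, made up most of the dendritic sum, which was 51.8, 152, 32.6, 54.4 and 0.0 CPM without it. Apoe made up 70.8 CPM of the macrophage sum in combination, and without Apoe that sum was 19.1, 13.0, 7.25, 15.2 and 12.8 CPM. Adgre1, C1qb and C1qc were at 0 in the IL15 superagonist library beside the excluded Csf1r and C1qa, and Ncr1 and Klra4 were at 0 in anti-PD1.

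Regulatory T cells were the largest share of CD45-positive cells in PBS and the smallest in fusion. They numbered 138 of 5945, 131 of 7292, 49 of 6687, 132 of 8493 and 14 of 8657 barcodes. These are 2.32% (exact Clopper-Pearson 95% interval 1.95 to 2.74), 1.80% (1.5 to 2.13), 0.733% (0.543 to 0.968), 1.55% (1.30 to 1.84) and 0.162% (0.0884 to 0.271). The intervals of PBS and anti-PD1 overlapped, as did those of anti-PD1 and combination, and those of IL15 superagonist and fusion lay below the others and apart from each other. All intervals here and below cover counting error only, and since the cells were counted from a sort, fewer regulatory T cells and more of other cells cannot be told apart.

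The order of the libraries held when each barcode was thinned to 1700 UMIs, with 1.58%, 1.14%, 0.493%, 1.12% and 0.139%. When Cd8 UMIs were allowed, an alternative chosen after seeing the data, the shares were 3.30%, 2.50%, 1.14%, 2.46% and 0.416%. Fusion was then 7.93-fold below PBS, against 14.4-fold by the rule, and it was 8.47-fold below without mixed barcodes and 9.10-fold below with at least 2 Foxp3 UMIs. Mixed barcodes were removed only where Cd3-positive, which changed the denominator mainly in fusion. It left 11 of 4273 barcodes there, from 14 of 8657, and 117 of 5369 in PBS, from 138 of 5945. Of Cd3-positive barcodes alone, regulatory T cells made up 6.87%, 5.37%, 1.29%, 2.46% and 0.180%, a 38.1-fold difference between PBS and fusion. The size of the difference thus varied with the rule and the denominator, while fusion was the lowest library under each of these settings.

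**Figure D1:**
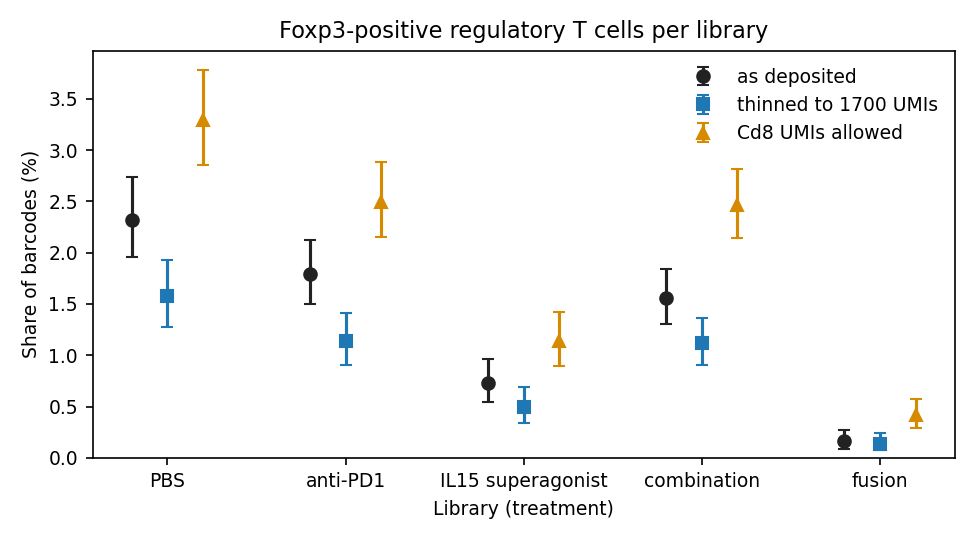
Share of kept barcodes (percent, vertical axis) that were regulatory T cells in each of the 5 libraries, by the rule, after thinning each barcode to 1700 UMIs, and with Cd8 UMIs allowed; bars on the points are exact 95% intervals. PBS is highest and fusion lowest under each of the 3 settings.

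There were 119, 111, 97, 150 and 33 Foxp3-negative CD4 T cells, so that for each regulatory T cell there were 0.862 (exact interval 0.669 to 1.11), 0.847 (0.652 to 1.10), 1.98 (1.39 to 2.85), 1.14 (0.893 to 1.45) and 2.36 (1.23 to 4.77). The Foxp3-negative class had a lower median depth in each library, from 2856 to 3803 UMIs, and it may hold regulatory T cells whose Foxp3 was not captured.

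Levels were then compared with Foxp3-negative CD4 T cells of the same libraries, which had a Cd3 and a Cd4 UMI and met the same exclusions. UMIs were summed per class and library, giving 5 sums against 5, and tested with edgeR's quasi-likelihood test with the library as a block and Benjamini-Hochberg adjustment at 0.05. Of 5197 genes, 279 were higher in regulatory T cells (5.37%) and 381 lower (7.33%), together 12.7%. Regulatory T cells had higher receptors of the TNF receptor family, higher genes for presenting and activating TGF-beta and higher Klrg1, and lower genes for T cell help, for egress from tissue and for the memory factor TCF-1.

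Lrrc32 encodes GARP, which holds latent TGF-beta on the cell surface (chr7:98489283-98502181, mm10). It was at 134, 170, 232, 178 and 103 CPM in regulatory T cells, and at 43.4, 25.4, 31.7, 30.3 and 24.4 CPM in Foxp3-negative CD4 T cells. Each value of the first series lay above each of the second, and the log2 difference was 2.31 ± 0.21 (SE, n = 5 libraries, edgeR adjusted p = 2.24e-05). Itgb8, a subunit of an integrin that releases active TGF-beta, was higher by 1.99 in log2, whereas Tgfb1 itself did not pass the test.

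The inhibitory receptor gene Klrg1 (chr6:122270596-122282882) showed the largest log2 difference of the 12 named higher genes, at 2.72 ± 0.29 (edgeR adjusted p = 6.75e-05). It was at 329, 249, 366, 384 and 103 CPM against 56.4, 57.7, 14.4, 36.7 and 60.9 CPM, with the fusion value, from 14 cells, the lowest. Bmyc, a relative of Myc, followed with 154, 249, 178, 162 and 180 CPM against 36.9, 36.9, 48.9, 25.6 and 18.3 CPM, a log2 difference of 2.35 ± 0.19 (edgeR adjusted p = 1.69e-05). Both genes were higher in 5 of 5 libraries.

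Of the TNF receptor and ligand genes fixed as a list, 8 of 10 were tested, 6 were higher and 1, Cd40lg, was lower, with a median log2 difference of 0.74 against -0.02 over all genes tested. Tnfrsf9, the costimulatory receptor 4-1BB, was at 1333, 1349, 2442, 1620 and 2259 CPM in regulatory T cells and at 458, 644, 619, 564 and 1236 CPM in the other CD4 T cells. The 2 sets did not overlap, and the log2 difference was 1.33 ± 0.13 (edgeR adjusted p = 5.53e-05). Tnfrsf4 was higher by 1.11 ± 0.14 and Tnfrsf18, the receptor GITR, by 0.63 in log2.

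Of the identity and suppression genes 18 of 22 were tested, 13 were higher and 1 was lower, with a median log2 difference of 1.22. Il2ra (chr2:11642807-11693193) was at 792, 407, 638, 693 and 577 CPM against 137, 233, 164, 193 and 97.4 CPM, which is 1.79 ± 0.20 in log2 (edgeR adjusted p = 9.76e-05). Ikzf2 (chr1:69531214-69687245) was higher by 1.88 ± 0.19 and Ctla4 (chr1:60887000-60915832) by 1.27 ± 0.14. Izumo1r, the folate receptor 4 gene, was higher by 1.45, and Entpd1, the ectoenzyme CD39 that degrades extracellular ATP, by 1.35. The inhibitory cytokine gene Il10 was higher by 1.13 (edgeR adjusted p = 0.0362) in 4 of 5 libraries, with 103 against 132 CPM in anti-PD1. The lower gene was Nrp1, a semaphorin receptor, at 76.4, 69.7, 39.9, 60.7 and 51.3 CPM against 225, 85.4, 112, 139 and 134 CPM.

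Other genes among the 12 named as higher were Slc16a3, a lactate transporter (1.78 in log2), the redox enzyme gene Glrx (1.69), the actin-capping gene Capg (1.22), the integrin chain Itgav (1.19), Cmtm7 (1.67) and Arl5a (2.0). The cytotoxic protease gene Gzmb was also higher, by 1.77 ± 0.20 (edgeR adjusted p = 9.77e-05), with 741, 1123, 1899, 1221 and 3041 CPM against 182, 655, 285, 401 and 658 CPM. Gzmb has been described in regulatory T cells as well as in killer cells. Gzmc was called higher too, but it had a log2 difference of -0.47 once mixed barcodes were removed.

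Genes for help to other cells were among those lower in regulatory T cells. Cd40lg, the ligand with which helper T cells activate B cells and dendritic cells, was at 0, 7.09, 3.62, 6.32 and 0 CPM in regulatory T cells against 67.2, 62.3, 95, 104 and 79.2 CPM, a log2 difference of -4.20 ± 0.39 (edgeR adjusted p = 3.15e-05). Tnfsf8, the CD30 ligand, was lower by the same -4.20, and Tnfsf11, the ligand RANKL, differed by -3.74. The death ligand gene Fasl differed by -2.68. Arid5a, which stabilises cytokine transcripts, and Gch1, the first enzyme of tetrahydrobiopterin synthesis, differed by -1.96 and -1.89.

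Of the resting and memory genes 9 of 14 were tested and 7 were lower (median log2 difference -1.04). Tcf7, which encodes TCF-1 (chr11:52252371-52283014), was at 12.3, 11.8, 7.25, 16.4 and 38.5 CPM against 143, 164, 127, 144 and 54.8 CPM. The 2 sets did not overlap, with fusion the closest pair, and the log2 difference was -3.42 ± 0.27 (edgeR adjusted p = 1.24e-05). S1pr1, the receptor that guides exit into lymph, differed by -2.67 and its regulator Klf2 by -1.04.

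The survival gene Bcl2 was at 12.3, 15.4, 25.4, 11.4 and 12.8 CPM in regulatory T cells and at 91.1, 53.1, 72.0, 71.9 and 104 CPM in the other CD4 T cells (-2.36 ± 0.27, edgeR adjusted p = 9.76e-05). Pdcd1, the PD-1 gene, was at 190, 246, 322, 245 and 500 CPM against 260, 448, 397, 385 and 773 CPM, lower in 5 of 5 libraries (-0.66 ± 0.12, edgeR adjusted p = 0.0028). Of the named lower genes, Itgb1 had the smallest adjusted p (-2.22 ± 0.12, edgeR adjusted p = 6.00e-07), with 85.9, 100, 116, 142 and 64.2 CPM against 401, 466, 498, 589 and 292 CPM. It encodes the integrin beta-1 chain. Ramp3, a partner protein of peptide hormone receptors, differed by -2.64, and the antiproliferative gene Btg2, Gramd3 and Serpinb6b by -1.42, -1.84 and -1.42.

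**Figure D2:**
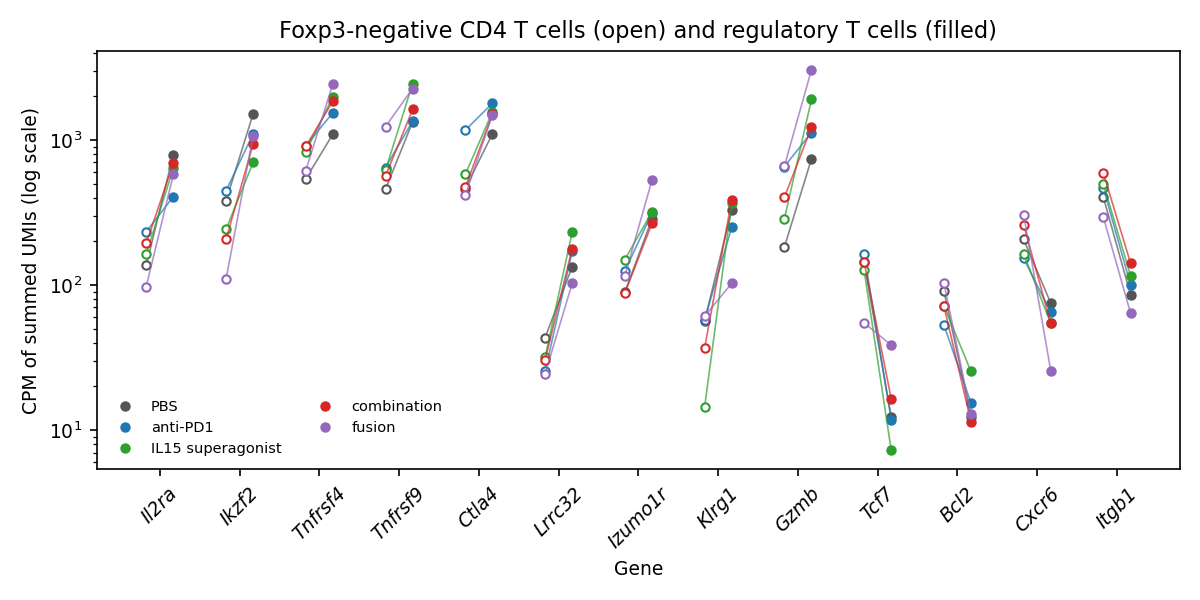
Level of 13 genes (CPM, log axis) in Foxp3-negative CD4 T cells (open) and regulatory T cells (filled), with a line joining the 2 classes of each of the 5 libraries. Lines rise for Il2ra through Gzmb and fall for Tcf7, Bcl2, Cxcr6 and Itgb1 in each library.

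Cell cycle genes were higher as well: 22 of 28 were tested, 12 were higher and 0 lower (median log2 difference 0.84). They were mostly genes of DNA replication, such as the helicase subunits Mcm2 to Mcm7 and Pcna (0.63), with Top2a (1.10), a topoisomerase that peaks late in the cycle, whereas Mki67 was at 1.02 with an edgeR adjusted p of 0.0515. Interferon-gamma response genes were higher in 9 of 22 tested and lower in 0, and glycolysis genes in 7 of 15 and 0. Immediate early genes were lower in 7 of 16 and higher in 0, with Egr1 at -1.14. The tissue and effector list was mixed, with 10 of 24 tested genes higher and 3 lower, and its repair factor gene Areg (0.28, edgeR adjusted p = 0.306) and the interleukin 33 receptor gene Il1rl1 (0.82, edgeR adjusted p = 0.0699) did not pass.

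Leaving out 1 library at a time gave 134 to 361 higher and 185 to 439 lower genes, with the fewest higher without IL15 superagonist (136 without combination) and the fewest lower without combination (232 without IL15 superagonist, 244 without anti-PD1), and the fit without the library block gave 106 and 165. Without mixed barcodes there were 302 and 384.

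Against CD8 T cells, of which there were 991, 1163, 1983, 3261 and 6632, the same test called 1179 of 9638 genes higher in regulatory T cells (12.2%) and 855 lower (8.87%), together 21.1%. Without anti-PD1 776 were higher, with cells thinned to 1700 UMIs 517 were, and without the library block 474 were lower. CD8 T cells had medians of 4446 to 8977 UMIs. Regulatory T cells carried more of the TNF receptor, tissue and interferon response genes, and less of the granzyme cluster and of interferon-gamma.

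Klrg1 was higher by 3.73 ± 0.16 in log2 (edgeR adjusted p = 2.43e-12), at 13.4, 20.5, 30.1, 27.5 and 10.2 CPM in CD8 T cells against the values above. Ctla4 was higher by 2.58, Tnfrsf4 by 3.16, Lrrc32 by 5.11 and Il1rl1 by 4.66. Of the tissue and effector genes 20 of 27 tested were higher and 2 lower (median 1.41, against -0.04 over all genes), including Areg (2.97) and Ccr8 (2.79). Il10 (4.93) of the identity list and the costimulatory receptor gene Icos (1.84) were also higher. Enzymes of arginine and aspartate metabolism, Ass1 (3.16) and Got1 (2.49), were also among the 12 named, with Ramp1 (3.30), the transcription factor gene Ets2 (2.61), the lysosomal genes Gm2a (2.50) and Ctsz (2.97), and Arl5a (2.41).

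Of 18 tested cytotoxic genes 15 were lower and 1 was higher (median -2.43). Gzmf (-7.09), Gzmd (-6.90), Gzme (-6.39) and Gzmk (-5.29) were lower, as were the pore-forming protein gene Prf1 (-2.31), Ifng (-3.82) and Fasl (-2.69). Gzmb did not pass, with a log2 difference of -0.35 (edgeR adjusted p = 0.0763), 741, 1123, 1899, 1221 and 3041 CPM in regulatory T cells and 663, 1838, 1414, 1762 and 3890 CPM in CD8 T cells. The remaining named lower genes were the protease inhibitor gene Serpine2 (-6.06), Nrgn (-5.69), the chemokine gene Ccl1 (-5.19), the receptors Cd160 (-3.34) and Cxcr6 (-2.59) and the signalling regulator Rgs16 (-2.15).

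The receptor chains for interleukin 15 are shared by these cells. Il2rb was at 454, 516, 765, 565 and 950 CPM in regulatory T cells and Il2rg at 345, 499, 750, 597 and 962 CPM, both lowest in PBS and highest in fusion. Against CD8 T cells Il2rg was higher by 0.73 in log2, Il2ra by 3.20 and the interleukin 7 receptor gene Il7r by 1.64. Bcl2 was at 12.3 to 25.4 CPM against 69.6 to 119 CPM in CD8 T cells (-2.51), and Bcl2l1, another survival gene of that family, was higher by 0.85. Type I interferon response genes were higher in 16 of 24 tested and lower in 0, and interferon-gamma response genes higher in 17 of 23 and lower in 1. These counts keep mixed barcodes. Of 3 tested dendritic cell markers Clec9a and Cd209a were also higher, as was Cd79b, the 1 tested B cell marker. Of 4 tested NK cell markers Klra8 was higher and Eomes lower, and the 2 tested macrophage markers were not called. The part of other cells' RNA in the interferon counts was not tested.

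Regulatory T cells differed among themselves in Ccr8, a chemokine receptor that marks part of the tumor regulatory T cells. Ccr8 had a UMI in 57 of 138, 72 of 131, 27 of 49, 72 of 132 and 7 of 14 cells. After thinning to 1700 UMIs the shares were 17.4% (exact interval 11.5 to 24.8), 32.1% (24.2 to 40.8), 36.7% (23.4 to 51.7), 38.6% (30.3 to 47.5) and 42.9% (17.7 to 71.1). PBS was lowest, and its interval overlapped those of anti-PD1, IL15 superagonist and fusion but not that of combination. In myeloid and B cell barcodes the share was at most 0.121%.

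Cells with and without a Ccr8 UMI were compared in the 4 libraries with at least 10 of each, leaving out fusion. The cells with Ccr8 were deeper, with medians of 6036 against 3345, 5491 against 3484, 6075 against 4254.5 and 4635.5 against 4119 UMIs. In the main fit depth was corrected only by scaling the summed UMIs with edgeR's TMM method. Counts with thinned cells are in the closing section. Of 4430 genes, edgeR called 0 higher (0.0%) and 9 lower (0.203%), with 326 and 340 at an unadjusted p under 0.05. DESeq2 called 20 and 21. Those lower with Ccr8 included Gzma (-1.97 ± 0.26, edgeR adjusted p = 0.0154), the egress regulator Klf2 (-1.15 ± 0.17, edgeR adjusted p = 0.0242) and the chemokine receptor Cxcr3 (-1.12 ± 0.19, edgeR adjusted p = 0.0378). Cd7 (-1.83), Ms4a4b (-1.35) and Tmem64 (-1.45) were the others that the naming rule admits. Most Gzma UMIs of the regulatory T cells lay in mixed barcodes, as given below by treatment. The part of other cells' RNA in the Gzma difference was not tested. Without PBS, or without IL15 superagonist, 0 genes were lower, and without the library block 0 were, so the calls rest on those libraries and on the block.

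Genes of activated tumor regulatory T cells did not pass in this comparison, among them Tnfrsf4 (0.71, edgeR adjusted p = 0.0727), the decoy receptor gene Il1r2 (1.45, 0.115) and Batf (0.55, 0.136). Ctla4, Klrg1 and Lrrc32 differed by 0.02, 0.00 and -0.03 in log2. Proliferation was also uneven: 13.4% of regulatory T cells had UMIs of at least 2 of 6 cycling genes after thinning, with 15.9% (10.3 to 23.1), 16% (10.2 to 23.5), 8.16% (2.27 to 19.6), 10.6% (5.92 to 17.2) and 7.14% (0.181 to 33.9) by library. These intervals overlap. In CD8 T cells the thinned shares were 15.9%, 14.7%, 4.84%, 6.41% and 39.0%, and in Foxp3-negative CD4 T cells 5.04%, 4.50%, 1.03%, 2.0% and 21.2%. Fusion was the highest library in both of those classes. In regulatory T cells fusion, with 14 cells, was the lowest after thinning but not before it. The shares before thinning were 26.1%, 20.6%, 12.2%, 12.1% and 14.3%. The difference between classes was not tested.

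**Figure D3:**
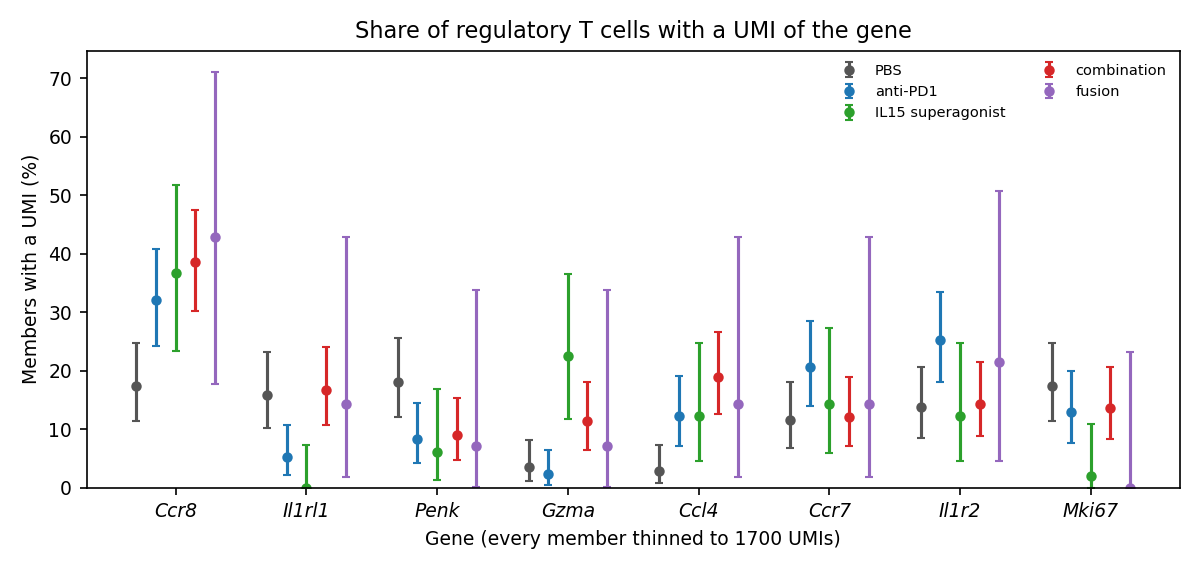
Percent of regulatory T cells with a UMI of each of 8 genes after thinning each cell to 1700 UMIs, by library, with exact 95% intervals. Ccr8 is lowest in PBS at 17.4%, Gzma highest in IL15 superagonist at 22.4%, and Penk highest in PBS at 18.1%.

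Levels in regulatory T cells were next compared between treatments. No test can be made with 1 library each, so a gene is described as past 2-fold where its CPM differed at least 2-fold and both libraries held at least 30 UMIs of it together. Shares over all genes are given with mixed barcodes kept. List counts without mixed barcodes have no such share beside them and cannot be set against a background. PBS is the shared control of the first 3 comparisons. That library also stood apart in receptor segments, with 0.330 Trbv UMIs per Trbc UMI against 2.0 to 3.43 in the others. A difference from PBS that the treatments share thus cannot be told apart from a trait of the PBS library. How far the segment difference extends to other genes was not tested. Foxp3 itself (chrX:7573644-7595245), which the rule used, was at 419, 416, 536, 514 and 629 CPM.

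In anti-PD1, 241 of 5630 genes were past 2-fold higher than in PBS (4.28%) and 224 lower (3.98%), together 8.26%. Without mixed barcodes 94 were higher, and with thinned cells 65 were higher and 89 lower. Ccr8 was past 2-fold higher and Il1rl1 past 2-fold lower, while Ctla4 and Il2ra differed by less than 2-fold. Ccr8 was at 274 against 132 CPM, 2.07-fold higher (exact 95% interval 1.63 to 2.65), and 1.63-fold and 2.02-fold higher in Foxp3-negative CD4 and CD8 T cells. Ctla4 was at 1786 against 1102 CPM (1.62-fold, 1.49 to 1.77), with 2.53-fold and 2.0-fold in those classes.

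Il2ra was at 407 against 792 CPM, a ratio of 0.513 (0.448 to 0.587), while it was 1.71-fold higher in Foxp3-negative CD4 and 1.83-fold higher in CD8 T cells. Without mixed barcodes the ratio was 0.629, and Il2ra had a UMI in 74.8% against 73.9% of the cells. The difference between these classes was not tested. Il1rl1, which lets tissue regulatory T cells sense interleukin 33, was at 42.5 against 190 CPM (ratio 0.224, 0.151 to 0.326), from 14 and 31 cells. Thinned detection of Il1rl1 was 5.34% against 15.9%, and Gata3, a factor that acts with this receptor, was at 106 against 232 CPM. Penk, an enkephalin precursor gene, was at 222 against 445 CPM (0.50, 0.415 to 0.60).

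Type I interferon response genes were past 2-fold higher in 9 of 20 compared and 0 were lower (median log2 ratio 0.97, against -0.06 over all genes compared). After removal of mixed barcodes, 4 of 16 were, namely Isg20, Stat2, Rtp4 and Xaf1, with a median of 0.64. Isg15, a ubiquitin-like interferon target, was 2.74-fold higher (2.30 to 3.27), and 1.65-fold after that removal. It was 2.38-fold higher in Foxp3-negative CD4 and 1.98-fold in CD8 T cells. Ifitm1 was 5.21-fold higher from 12 against 6 cells, and it had no UMI left once mixed barcodes were removed. These numbered 28 in anti-PD1 and 21 in PBS, and the dendritic cell marker sum without Ccr7 was 152 against 51.8 CPM. The part of other cells' RNA in these values was not tested.

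Glycolysis genes were past 2-fold higher in 5 of 15 (median 0.78), or 4 of 15 after that removal, and cytotoxic genes in 4 of 10, or 6 of 9 after it, with 0 lower in both lists. The chemokine gene Ccl3 was at 232 against 9.55 CPM, from 12 and 5 cells, with 39.8% of the anti-PD1 UMIs in 1 cell, and Ccl4 at 268 against 28.6 CPM from 26 and 13 cells. Thinned detection of Ccl4 was 12.2% against 2.90%, and 47.1% against 37.1% in myeloid and B cell barcodes, which include cells that express Ccl4 themselves. The part of free RNA in the Ccl4 values was not tested.

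Several genes with the widest higher differences came from few cells. Slpi had 66 UMIs and S100a8 54 UMIs, each in 1 cell, and Ccl22 had 47 UMIs in 4 cells. The decoy receptor gene Il1r2 was at 372 against 75.0 CPM (4.96-fold), or 2.49-fold without mixed barcodes, and the homing receptor gene Ccr7 3.22-fold higher (3.35-fold without them). Among lower genes were Polr2l, an RNA polymerase subunit (0.130), Camk2n1 (0.179), Jade2 (0.181), Scrib (0.231), Cpd (0.240), Ppp1r14b (0.248) and Hacd3 (0.334).

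In IL15 superagonist, 222 of 4402 genes were past 2-fold higher than in PBS (5.04%) and 334 lower (7.59%), together 12.6%. These 49 cells had higher Gzmb, Ccr8 and Tgfb1, and lower Ikzf2 and lower genes of mitosis. Gzmb was at 1899 against 741 CPM (2.56-fold, 2.27 to 2.90), detected in 77.6% against 60.9% of cells. It was 2.57-fold higher without mixed barcodes, and 1.56-fold and 2.13-fold in Foxp3-negative CD4 and CD8 T cells.

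Gzma was at 2286 against 40.9 CPM (55.9-fold, 38.7 to 83.5), from 14 of 49 and 5 of 138 cells. Thinned detection was 22.4% against 3.62%, where myeloid and B cell barcodes had 7.87% and 1.5%. Nearly all of the Gzma UMIs lay in mixed barcodes: 5 UMIs in IL15 superagonist and 1 in PBS were left without them, under the 30 needed for a comparison. Gzma was 23.9-fold and 18.9-fold higher in Foxp3-negative CD4 and CD8 T cells. The NK marker sum was 188 against 21.8 CPM in these regulatory T cells, and its part in the granzyme values was not tested.

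Of the cytotoxic list 7 of 10 genes were past 2-fold higher and 0 lower (median log2 ratio 1.95, against 0.01 over all genes). Without mixed barcodes 3 of the 7 that still had 30 UMIs were, Gzmb, Ccl4 and the granzyme inhibitor gene Serpinb9. Prf1 was 16.4-fold higher, with 2 and 5 UMIs left after that removal, and the chemokine gene Ccl5 3.94-fold higher, or 1.22-fold after it. Tgtp2, an interferon-induced GTPase gene, was 19.3-fold higher from 15 and 4 cells. Cd9, Klra7 and Cst3 were 7.31-fold, 9.30-fold and 5.25-fold higher, Klra7 from 5 cells that were all mixed.

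Ikzf2 was at 699 against 1513 CPM (0.462, 0.395 to 0.539), and at 0.637 and 0.359 of its PBS level in Foxp3-negative CD4 and CD8 T cells. Tgfb1 was at 402 against 196 CPM (2.05-fold), and 1.82-fold and 1.96-fold in those classes. Ccr8 was 2.55-fold higher (1.90 to 3.42). Il1rl1 and Gata3 were past 2-fold lower, as in anti-PD1, and thinned detection of Il1rl1 was 0.0% against 15.9% in PBS. Of 19 compared genes for STAT5 targets and for the receptors of interleukins 2 and 15, 3 were past 2-fold higher, Il2rg (2.17-fold), Gzmb and the feedback inhibitor gene Socs3 (2.30-fold), and 1, Socs2 (0.438), was lower. Il2rb was 1.68-fold higher and Il2ra was at 638 against 792 CPM.

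Cell cycle genes were past 2-fold lower in 8 of 22 and higher in 0 (median log2 ratio -0.52), and in 8 of 21 without mixed barcodes. They were mainly genes of mitosis: the proliferation marker gene Mki67 was at 83.3 against 229 CPM (0.364), and Ube2c, a subunit of the ubiquitin system that ends mitosis, at 25.4 against 233 CPM (0.109) from 4 and 30 cells. Ube2c was at 1.10 and 0.57 of its PBS level in Foxp3-negative CD4 and CD8 T cells, and Mki67 at 0.253 and 0.448. Other named lower genes were Cenpf (0.0565, 0.00140 to 0.331), Hist1h2ae (0.0972, 0.0196 to 0.294), Tmem189 (0.108, 0.0127 to 0.413) and Hnrnpu (0.179). The oxygen sensor gene Egln1, with 0 against 53 UMIs, was at least 6.65-fold lower on a floor of 3 counts for the library, Hist1h2ap at least 6.90-fold and the heat shock gene Hspa1a at least 6.27-fold.

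In combination, 251 of 5606 genes were past 2-fold higher than in PBS (4.48%) and 216 lower (3.85%), together 8.33%. Ccr8 (2.39-fold, 1.88 to 3.05), Tgfb1 (2.17-fold) and Socs3 (2.38-fold) were past 2-fold higher, and Penk and Gata3 (0.452) past 2-fold lower, while Ikzf2 had a ratio of 0.619. Penk was at 126 against 445 CPM (0.284, 0.225 to 0.357), or 0.412 without mixed barcodes. Penk was 2.19-fold higher in Foxp3-negative CD4 T cells, a difference between classes that was not tested.

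Gzma was at 758 against 40.9 CPM (18.5-fold, 12.8 to 27.7), from 19 and 5 cells, with 25 and 1 UMIs left without mixed barcodes, under the 30 needed. It was 19.0-fold and 18.5-fold higher in Foxp3-negative CD4 and CD8 T cells, and the NK marker sum was 96.1 against 21.8 CPM in the regulatory T cells. Its part in the Gzma values was not tested. Ccl4 was at 549 against 28.6 CPM (19.2-fold, 12.4 to 31.3) in regulatory T cells, against 0.613 and 0.819 of the PBS level in the other classes. Thinned detection of Ccl4 was 18.9% against 2.90%, and 35.4% against 37.1% in myeloid and B cell barcodes. Cytotoxic genes were past 2-fold higher in 6 of 12 (median 1.02, against 0.02 over all genes), and in 2 of 8, Ccl3 and Ccl4, without mixed barcodes. Klre1, an NK receptor gene, was 16.2-fold higher (4.17 to 139) from 14 and 2 cells, with 5 UMIs left after that removal.

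Type I interferon genes were past 2-fold in 0 of 17 in either direction, and cell cycle genes lower in 1 of 23 (12 of 21 without mixed barcodes). The share of all genes that were lower without mixed barcodes is not given here, so the 12 of 21 has no background. Genes with the widest higher differences again came from few cells, such as Clec4n (55.6-fold, 9.61 to 2232, 7 cells), Ccl6 (18.8-fold, 4 cells), Lpl (3 cells) and Hspb1 (96.4% of UMIs in 1 of 3 cells). Lower genes were Polr2l (0.139), the AP-1 repressor gene Jdp2 (0.144), Hist1h2ap (0.152), the metallothionein gene Mt2 (0.202), Inf2 (0.224), Cenpw (0.245) and Osbpl3 (0.307).

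**Figure D4:**
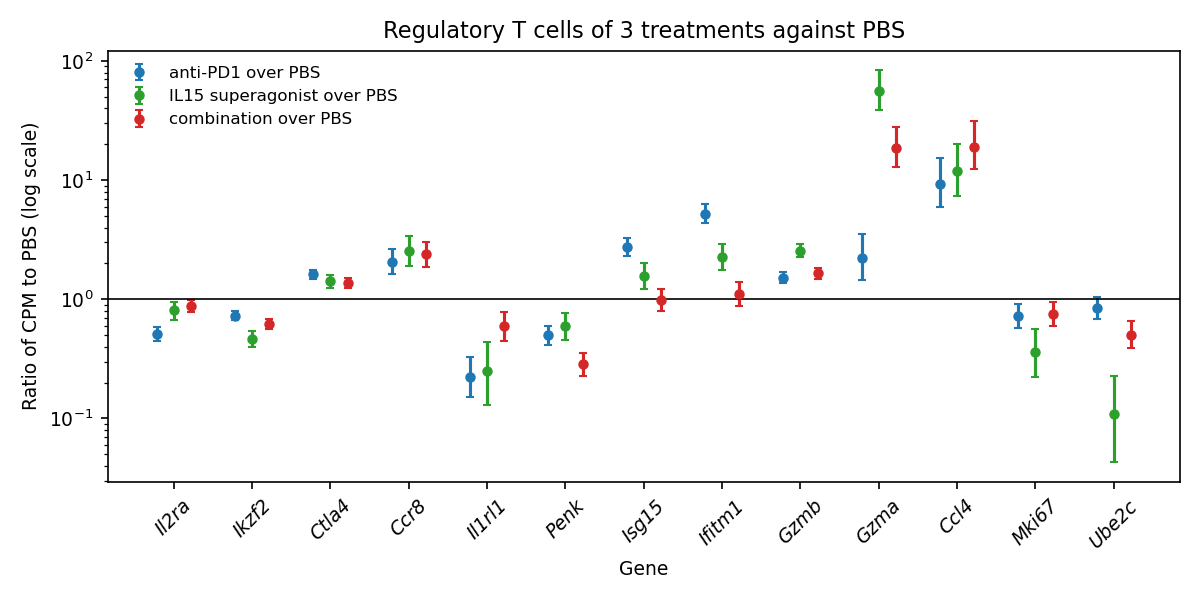
Ratio of the level in regulatory T cells to that in PBS (log axis) for 13 genes in anti-PD1, IL15 superagonist and combination, with exact 95% intervals. Ccr8 lies above 1 in the 3 libraries and Ikzf2 below 1, Isg15 is above 1 in anti-PD1 at 2.74, and Ube2c lies lowest in IL15 superagonist at 0.109.

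Combination was also compared with anti-PD1, and 181 of 5723 genes were past 2-fold higher (3.16%) and 143 lower (2.5%), together 5.66%. With 1 library each, this cannot show what the superagonist adds to the antibody. Il1rl1 was at 112 against 42.5 CPM (2.64-fold, 1.78 to 4.01) and Tgfb1 2.13-fold higher. Il1rl1 was past 2-fold lower than in PBS both in anti-PD1 and in IL15 superagonist. Gzma was 8.33-fold higher, the chemokine gene Xcl1 11.8-fold (3.69 to 60.0), Tnf 8.02-fold and Camk2n1 8.02-fold. Without mixed barcodes Gzma fell under the 30 UMIs needed for a comparison. Values without mixed barcodes are not given here for Xcl1, Tnf and Camk2n1. Type I interferon genes were past 2-fold lower in 8 of 20 (median -0.80), and in 0 of 16 without mixed barcodes. Isg15 had a ratio of 0.358, or 0.706 after that removal.

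In IL15 superagonist against anti-PD1, 137 of 4555 genes were past 2-fold higher (3.01%) and 224 lower (4.92%), together 7.93%. Gzma was 25.1-fold higher, with 5 and 4 UMIs left without mixed barcodes, the nuclear lamina gene Lmna 5.07-fold, Tgfb1 2.01-fold and Tnfrsf9 1.81-fold. Cell cycle genes were past 2-fold lower in 8 of 23 and higher in 0, with Ube2c at 0.129. Ccr7 had a ratio of 0.458 (0.339 to 0.608).

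The 14 regulatory T cells of the fusion library, with 77923 UMIs in all, were too few for such comparisons and are given as levels. The deepest of them held 16846 of these UMIs, and 3 of them were mixed. Tnfrsf4 was at 2438 CPM, Ccr8 at 500 CPM, Gzmb at 3041 CPM, Pdcd1 at 500 CPM and Tgfb1 at 488 CPM, each the highest CPM of the 5 libraries. By thinned detection fusion was not the highest for Tnfrsf4 (78.6%, against 80.2% in anti-PD1) or Gzmb (57.1%, against 67.3% in IL15 superagonist). It was the highest for Ccr8 (42.9%) and Pdcd1 (42.9%). Klrg1 at 103 CPM, Il1rl1 at 25.7 CPM, Gata3 at 38.5 CPM and Mki67 at 38.5 CPM were the lowest in CPM. These low levels came from few cells: Klrg1 had a UMI in 5 of the 14, Il1rl1 in 2 and Mki67 in 2. By thinned detection fusion was not the lowest for Klrg1 (35.7%, against 26.0% in anti-PD1) or Il1rl1 (14.3%, against 0.0% in IL15 superagonist). For Mki67 it was, at 0.0% against 2.04% in IL15 superagonist. Gzmc was at 1001 CPM against 5.91 to 65.2 CPM in the other libraries, and CD8 T cells of the fusion library had it at 1622 CPM.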

How the data were processed

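Raw UMI counts for each gene in each barcode were deposited by the authors, who used Cell Ranger 2.1.1 and mm10, per the submitters' processing notes. The sources used here do not give their barcode filter. Symbols of 28692 genes came with the files, of which 58 symbols repeat.

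Barcodes with at most 10% mitochondrial UMIs were kept. Foxp3-negative CD4 T cells had a Cd3 and a Cd4 UMI, and CD8 T cells a Cd3 and a Cd8a or Cd8b1 UMI, both without Foxp3, Csf1r, C1qa and Cd79a. No doublet caller was run; mixed barcodes were removed as an alternative. UMIs were summed per class and library. Levels are CPM with exact Poisson 95% intervals, ratios have exact conditional intervals and shares Clopper-Pearson intervals. For a fold, a library without UMIs of a gene took a floor of 3 counts. Classes were tested with edgeR 4.0.16 (TMM, filterByExpr, quasi-likelihood, library as block, adjusted p under 0.05). The block pairs classes because they come from the same library. Genes of the rule, with Cd4, were not tested. DESeq2 1.42.0, thinning and other alternatives are in the closing section. Random thinning used a fixed seed.

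On simulated counts with the depth of each class, the fit recovered 79%, 82% and 69% of genes changed 4-fold and 19%, 7% and 18% of genes changed 2-fold, for the comparisons with Foxp3-negative CD4 T cells, with CD8 T cells and by Ccr8, so 2-fold changes were mostly missed.

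The named genes are, per treatment comparison, the 8 higher and 8 lower whose interval bound lies farthest from equal levels, of which some are shown, and per test the 12 higher and 12 lower with the smallest p at 2-fold or more, beside members of the gene lists. Mitochondrial, ribosomal, hemoglobin, sex-linked and receptor segment genes were left out. The cell rule, its members and the gene lists were chosen with earlier results of these data known. Gene coordinates were taken by identifier from the GENCODE annotation of GRCm38 (mm10). Promoters are from RefSeq on GRCm38.p6, matched by symbol. Results for 2 genes of the lists are not reported here.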

Additional observations from a re-analysis of the deposited data

Results flagged for a closer look

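With the regulatory T cells and CD8 T cells of the same pair of libraries, 1319 ratios could be set side by side, and 11 were at least 2-fold in opposite directions. The difference between the classes was not tested, since each treatment has 1 library. In anti-PD1 against PBS these were Cd209a, at a ratio of 2.1 (1.10 to 4.24) in regulatory T cells and 0.359 in CD8 T cells, and Il4i1 at 9.75 (3.55 to 37.3) and 0.424. Il4i1 had 1 UMI left in each library without mixed barcodes.

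In combination against PBS they were Apoe at 6.49 (3.08 to 15.8) and 0.141, and Spp1 at 4.99 (3.11 to 8.37) and 0.440. In combination against anti-PD1 they were Apoe at 59.9 (10.3 to 2407) and 0.353, the stress factor gene Atf3 at 2.36 (1.43 to 4.00) and 0.499, Ccl4 at 2.04 (1.74 to 2.41) and 0.431, Ccl6 at 2.87 (2.08 to 4.01) and 0.490, Clec4n at 16 (5.95 to 60.8) and 0.2, and Hspb1 at 3.27 (1.89 to 5.91) and 0.373. Macrophages also express Apoe, Spp1, Ccl6 and Clec4n, and the macrophage marker sum without Apoe was 15.2 CPM in combination, 13.0 CPM in anti-PD1 and 19.1 CPM in PBS. Csf1r and C1qa in that sum are 0 by the rule, which removed barcodes that held them. The sum thus cannot measure how much macrophage RNA was present. In IL15 superagonist against anti-PD1 the homing receptor gene Ccr7 was at 0.458 (0.339 to 0.608) in regulatory T cells and 2.36 in CD8 T cells. The part of other cells' RNA in these values was not tested.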

How the results depend on the processing

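Shares of regulatory T cells moved with the rule, here in the order of the report. They were 1.58%, 1.14%, 0.493% and 1.12% before fusion at 1700 UMIs per barcode, 1.94% and 1.48% for the first 2 at 4000 UMIs, and 1.26%, 1.25%, 0.523% and 1.11% with at least 2 Foxp3 UMIs. They were 3.70%, 3.37%, 1.41%, 2.84% and 0.462% with no exclusion, 6.87%, 5.37%, 1.29% and 2.46% of Cd3-positive barcodes, and 3.30%, 2.50%, 1.14%, 2.46% and 0.416% with Cd8 UMIs allowed. Fusion was lowest in each of these.

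Counts past 2-fold, higher and lower, in the order anti-PD1, IL15 superagonist and combination against PBS, then combination and IL15 superagonist against anti-PD1, were 65 and 89, 105 and 129, 118 and 106, 57 and 44, and 55 and 62 with thinned cells. With a minimum of 10 UMIs they were 585 and 696, 596 and 952, 667 and 625, 581 and 450, and 544 and 748. Without mixed barcodes anti-PD1 against PBS had 94 higher, and combination and IL15 superagonist against anti-PD1 had 76 and 146 lower. For IL15 superagonist against PBS, 147 were higher when mitochondrial, ribosomal and receptor segment genes were left out of the total, and 209 lower with at least 2 Foxp3 UMIs. With anti-PD1 in place of PBS, 137 were higher in IL15 superagonist and 143 lower in combination, and with a Cd4 UMI needed 164 were higher in combination against PBS.

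Against Foxp3-negative CD4 T cells, DESeq2 called 166 higher and 235 lower, the fit without the replicate block 106 and 165, and leaving out 1 library 134 to 361 and 185 to 439. Against CD8 T cells, thinning gave 517 higher, no low-count filter 1292 lower, no replicate block 474 lower, and leaving out 1 library 776 to 1269 higher and 619 to 856 lower. By Ccr8, DESeq2 gave 20 higher and 21 lower, no low-count filter 101 and 86, thinning 2 and 5, removal of mixed barcodes 17 and 21, no replicate block 0 lower, and leaving out 1 library 0 to 6 higher and 0 to 14 lower. No paired analysis was possible between treatments because each has 1 library.

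Directions reversed with anti-PD1 in place of PBS for Cst3 in IL15 superagonist (ratio 0.665) and for Ccl3 (0.376) and Polr2l (1.07) in combination. Without mixed barcodes they reversed for Klra7 in IL15 superagonist against PBS (0), Ccl9 (0) and Cxcl9 (1.85) in combination against anti-PD1, Ccl5 (0.661) and Serpinb9 (0.986) in IL15 superagonist against anti-PD1, Gzmc against Foxp3-negative CD4 T cells (log2 -0.47) and Fosb against CD8 T cells (-0.079). With a Cd4 UMI needed they reversed for Ccl6 in combination against PBS (0.505) and Gzmc (-0.56). The cause was not tested. The alternatives with Cd4 needed, with Cd8 allowed, and for the gene lists were chosen after seeing the data.

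The 14 cells of fusion and the 49 of IL15 superagonist limit what depth can show, and genes under 30 UMIs in a pair of libraries were not compared. Intervals cover counting error, not the spread between animals.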
